A study of Homo sapiens with 4 samples.

Results

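The adhesion genes of epithelial cells and the factors that switch them off were followed in an array study of DCUN1D1, a co-E3 ligase that promotes attachment of the ubiquitin-like protein NEDD8 to cullins. The set holds the cadherins CDH1, CDH2 and CDH3, the catenins CTNNA1, CTNND1 and JUP, the transcription factors ZEB1 and SNAI2 and the splicing regulators ESRP1 and ESRP2, taken by gene symbol. These are 10 of the 19774 genes on the array, and 25 of the 40914 probe sets that name exactly 1 gene carry one of these names. Each probe set, which is a group of short probes to one stretch of RNA, was taken as it stands in the deposited table of log2 signals. The samples are DU145 cells, an established line from a prostate carcinoma metastasis. They carried a lentiviral shRNA against GFP (the control, 2 arrays) or a lentiviral shRNA against DCUN1D1 (the knockdown, 2 arrays). The records call the arrays biological duplicates and describe stable transduction, 16 h of culture in serum-supplemented DMEM before RNA extraction and labelling from 1 µg of total RNA. More than one shRNA against DCUN1D1 is described in the methods, and which of them each knockdown array carried was not stated in the records. DMSO is named in the treatment record with no dose and no group.

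Classical cadherins are transmembrane proteins that bind their like on the neighbouring cell. Their cytoplasmic tails bind p120-catenin, which keeps them at the surface, and β-catenin or plakoglobin, which hold α-catenin and through it the actin cytoskeleton. In an epithelial–mesenchymal transition (EMT), factors such as ZEB1 and SNAI2 bind E-box sequences and repress CDH1, the E-cadherin gene, while ESRP1 and ESRP2 keep the epithelial splice forms of CD44, FGFR2 and CTNND1 in cells that have not passed through it.

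Of the 10 genes, 4 (CDH2, CTNNA1, JUP and ZEB1) were matched by symbol to a promoter sequence of RefSeq (GRCh38.p14). The 250 bases before the outermost start of ZEB1 and JUP are shown, since these are the genes with E-boxes in some of their start windows and with probe sets in which the knockdown arrays did not overlap the controls. They lie at chr10:31318167-31318416 on the plus strand and at chr17:41786712-41786961 on the minus strand. Capitals mark the E-box CACCTG or its reverse complement CAGGTG, so that both strands are searched.
ZEB1: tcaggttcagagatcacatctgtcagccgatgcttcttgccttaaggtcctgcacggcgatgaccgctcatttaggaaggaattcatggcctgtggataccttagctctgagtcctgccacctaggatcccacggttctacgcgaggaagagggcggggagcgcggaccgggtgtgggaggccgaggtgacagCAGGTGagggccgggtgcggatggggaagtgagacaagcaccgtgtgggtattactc
JUP: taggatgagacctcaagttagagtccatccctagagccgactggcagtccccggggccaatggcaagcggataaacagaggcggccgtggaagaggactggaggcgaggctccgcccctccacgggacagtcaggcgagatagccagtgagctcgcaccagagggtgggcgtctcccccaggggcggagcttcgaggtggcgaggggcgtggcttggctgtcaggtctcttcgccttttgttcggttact
The outermost ZEB1 window held 1 such E-box, which begins 57 bases before the start, and the outermost JUP window held 0. Over all annotated starts of each gene it was found in 2 of 7 windows for ZEB1, 1 of 2 for JUP, 0 of 4 for CTNNA1 and 0 of 2 for CDH2. Among all 35116 windows of the same length, 17.5% held one. A match describes these letters and is no measurement of binding.

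The arrays differed in ways that touch these genes. The table has no detection calls, so each value was set against a nonspecific control on the same array, probes with 20 G or C bases and no match in human RNA. It read 2.97 and 3.30 in the shGFP arrays and 2.48 and 2.51 in the shDCUN1D1 arrays, a difference of −0.64 on the log2 scale. Between 6.07% and 18.7% of all probe sets lay above it in an array. This control is 1 of 23 nonspecific controls, and the others were not used as a cut. A value below it thus does not show that a transcript was absent. Knockdown replicate 1 stood apart, with 1416 probe sets that exceeded all the rest by more than 2 log2, where each other array had 0 to 5. The array control for the 3′ end of GAPDH read 5.02 and 4.68 in the shGFP arrays. It read 10.82 in knockdown replicate 1 and 5.09 in knockdown replicate 2. What this says of the RNA or the arrays was not tested. DCUN1D1 itself had 6 probe sets near background. The one with the most signal, 222678_PM_s_at, read 2.55 and 1.99 in the control arrays against 1.60 and 1.45 after knockdown, a log2 fold change of −0.75 (limma, standard error 0.26, adjusted p = 0.625) that was not past the fold bound defined below. Both knockdown arrays were also lower on 238879_PM_at, 222679_PM_s_at and 240781_PM_x_at, with log2 fold changes of −0.47, −0.19 and −0.11. On 218583_PM_s_at and 242428_PM_at the groups overlapped, at 0.12 and 0.07. None of these was past the bound. Signals this low, on probe sets that did not all move alike, are a weak check of the knockdown. The smallest p that an exact permutation test (two-sided) allows with 2 arrays a group is 0.333. Precision below is limited by this number of arrays.

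The label of an epithelial prostate line was checked against its defining genes, and these did not all bear it out. DU145 is known to make the simple keratins 8 and 18, E-cadherin and the surface glycoprotein CD44. KRT18 read 1.68 and 1.63 in the controls, 7.62 in knockdown replicate 1 and 1.69 in knockdown replicate 2. Of the 13 CD44 probe sets the largest difference was on 212063_PM_at, with 1.201 and 1.194 in the controls, 7.80 in knockdown replicate 1 and 1.31 in knockdown replicate 2. Both probe sets were thus high in knockdown replicate 1 only, and were taken up after their values were seen. Several further CD44 probe sets were also highest in knockdown replicate 1, such as 1557905_PM_s_at at 5.49, while others were not. One of the others, 234411_PM_x_at, was above the nonspecific control in all 4 arrays, at 2.74 to 4.05. CDH1, described below, was above the nonspecific control in no array. EPCAM, an epithelial adhesion molecule, read 1.88 to 2.53 and was above the nonspecific control in no array. One KRT8 probe set, 209008_PM_x_at, was above it in all 4 arrays at 3.25 to 3.73, and another, 216821_PM_at, read 3.66 and 3.72 in the control arrays against 2.001 and 1.595 after knockdown. Of the 8 measured genes of a list of prostate and epithelial identity, KRT8 alone was above the control in all 4 arrays. The summed linear signal of that list was 95.2 and 93.8 in the control arrays, 265.5 in knockdown replicate 1 and 78.4 in knockdown replicate 2. KRT18, at 7.62, made most of the sum in knockdown replicate 1. Of the 18 probe sets of the list, both knockdown arrays were lower than both controls in 10 and higher in 1. Over all probe sets these shares were 25.0% and 17.9%. Of 19 measured markers of fibroblasts, endothelial cells and leukocytes, 1 was above the control in all 4 arrays, the collagen gene COL1A1. The part of this difference between arrays in the results below was not tested, so values are given with and without knockdown replicate 1. In bulk RNA, fewer cells with a transcript and less transcript per cell cannot be told apart.

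**Figure D1:**
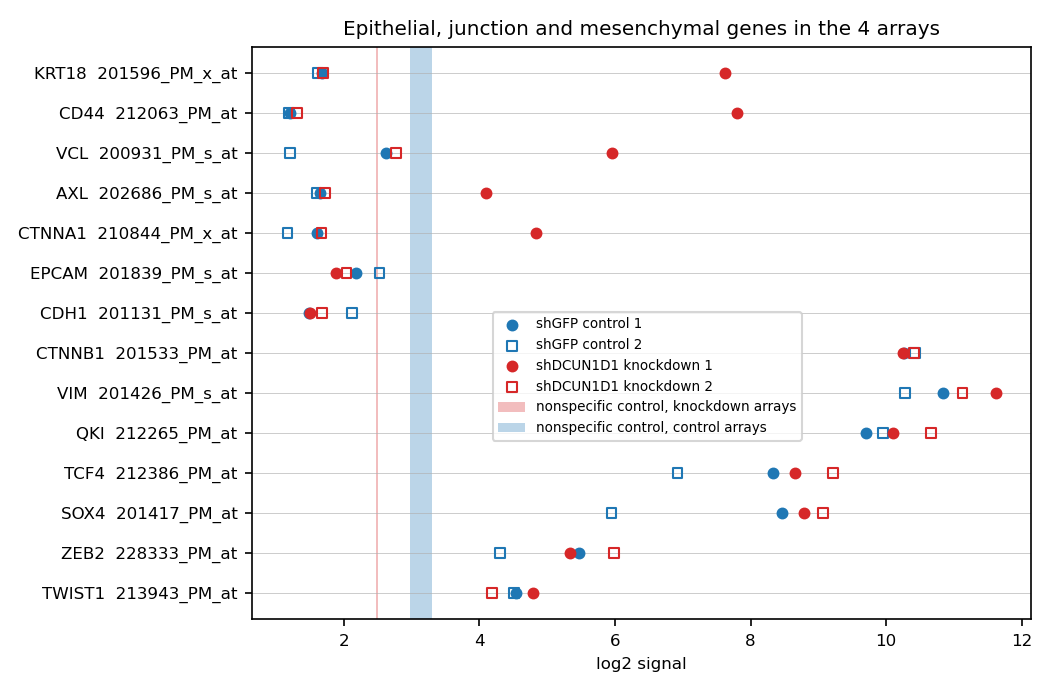
Log2 signal (horizontal axis) of 14 probe sets of epithelial, junction and mesenchymal genes, 1 row each, in the 4 arrays: blue for shGFP control, red for shDCUN1D1 knockdown, a filled circle for replicate 1 and an open square for replicate 2, with shaded bands for the span of the nonspecific control in the arrays of each group. KRT18, CD44, VCL, AXL and CTNNA1 stand more than 2 log2 higher in knockdown replicate 1 than in any other array, EPCAM and CDH1 lie below the band of their own group in every array, and CTNNB1, VIM and the 5 rows under it lie above them in all 4. The genes were picked after their values were seen, each with the probe set that holds its highest value.

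None of the 10 genes had a probe set above the nonspecific control in all 4 arrays, or in both arrays of either group. The 25 probe sets gave 100 values between 0.94 and 4.83, of which 7 lay above the control of their array. Of these 7, 5 came from knockdown replicate 1, 1 from knockdown replicate 2, 1 from control replicate 2 and 0 from control replicate 1. Over all genes, 1528 of 19774 (7.73%) had a probe set above the control in all 4 arrays. For most of these genes the signal was therefore not well above background, and a small difference says little about the transcript.

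**Figure D2:**
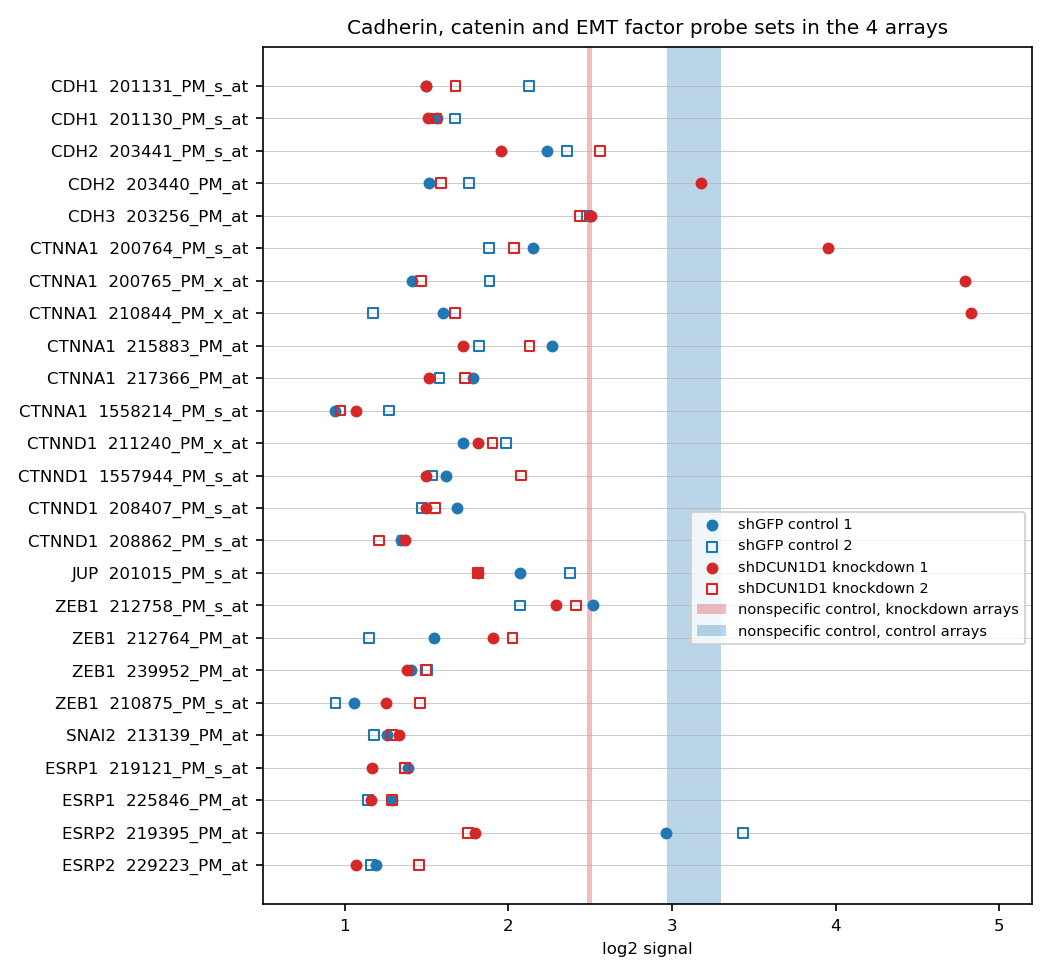
Log2 signal (horizontal axis) of the 25 probe sets of the 10 genes, 1 row each, in the 4 arrays: blue for shGFP control, red for shDCUN1D1 knockdown, a filled circle for replicate 1 and an open square for replicate 2. Shaded bands give the span of the nonspecific control in each group. Most points lie below the bands, 3 CTNNA1 probe sets reach 3.95 to 4.83 in knockdown replicate 1, and ESRP2 219395_PM_at falls from 2.96 and 3.43 to 1.79 and 1.75.

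Differences are log2 fold changes, knockdown minus control, tested with limma over all 40914 probe sets with Benjamini–Hochberg adjustment. A probe set was called past the fold bound when its fold change had a lower 90% confidence bound over 1.2, the rule of the study's methods computed here from limma's standard error. By this bound 1 of the 25 probe sets was lower and 0 were higher. Over all probe sets 2.38% were lower and 1.18% higher, so the count among these genes lies near the background. Without knockdown replicate 1 the counts were again 1 lower and 0 higher, where 2.15% and 2.94% of all were. Without knockdown replicate 2 they were 1 lower and 4 higher (3 probe sets of CTNNA1 and 1 of CDH2), where 2.13% and 9.80% were. By adjusted p under 0.05 limma called 0 of the 25, as it called 0% of all probe sets. At an unadjusted p under 0.05 it gave 3 of the 25, where 939 of all 40914 were higher and 2146 lower. The adjusted p of the 25 ran from 0.625 to 0.999. The knockdown arrays lay below both controls in 3 of the 25 probe sets (25.0% of all) and above both in 4 (17.9% of all). In 5 of the 25 the difference between the groups was larger than the distance between the replicates of either group, as in 27.0% of all probe sets. The median log2 fold change of the 25 was −0.01, as it was over all probe sets.

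**Figure D3:**
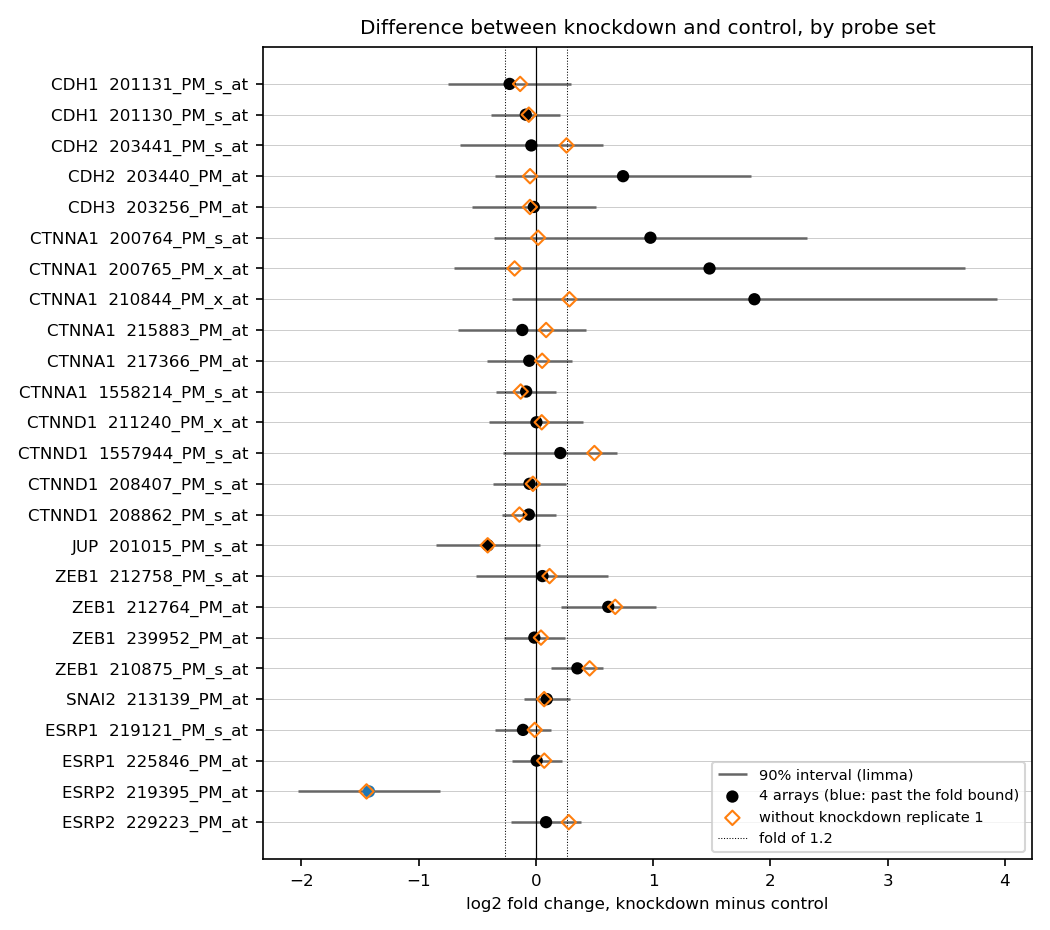
Log2 fold change, knockdown minus control (horizontal axis), of the 25 probe sets, with limma's 90% interval as a grey bar. Orange diamonds give the value without knockdown replicate 1 and dotted lines a fold of 1.2. ESRP2 219395_PM_at (blue) is the only probe set past the bound, at −1.42 with and −1.44 without that array, while the 3 CTNNA1 values of 0.98 to 1.86 shrink to between −0.18 and 0.29.

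The cadherins did not differ beyond their replicates. CDH1, the adhesion molecule of epithelial cells, read 1.496 and 2.126 in the control arrays against 1.497 and 1.677 after knockdown on 201131_PM_s_at. The groups overlapped, with a log2 fold change of −0.22 (90% interval −0.75 to 0.30, adjusted p = 0.758 from limma). On 201130_PM_s_at, CDH1 read 1.56 and 1.68 against 1.51 and 1.56, so both knockdown arrays were lower, by less than the distance between the controls. CDH2, the N-cadherin of neural and mesenchymal cells, read 2.24 and 2.36 against 1.96 and 2.56 on 203441_PM_s_at, a log2 fold change of −0.04 that became 0.26 without knockdown replicate 1. Its other probe set, 203440_PM_at, read 1.52 and 1.76 in the controls, 3.18 in knockdown replicate 1 and 1.59 in knockdown replicate 2. The log2 fold change of 0.74 on that probe set was −0.05 without knockdown replicate 1, the only array that was high. CDH3, the P-cadherin of basal epithelial cells, read 2.50 and 2.48 against 2.51 and 2.44, with a log2 fold change of −0.02 (90% interval −0.55 to 0.51). CDH3 had the narrowest range of the 3 cadherins over the 4 arrays, just at the nonspecific control of the knockdown arrays.

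Among the catenins, CTNNA1 gave the widest disagreement between replicates. CTNNA1 encodes αE-catenin, which links cadherin complexes to actin, and it has 6 probe sets. On 210844_PM_x_at it read 1.60 and 1.17 in the controls, 4.83 in knockdown replicate 1 and 1.67 in knockdown replicate 2. On 200765_PM_x_at the values in the same order were 1.41, 1.88, 4.79 and 1.47. On 200764_PM_s_at they were 2.15, 1.88, 3.95 and 2.04. All 3 probe sets were thus high in knockdown replicate 1 alone, and the other 3 (215883_PM_at, 217366_PM_at and 1558214_PM_s_at) were not, with log2 fold changes of −0.12 to −0.06. The log2 fold changes of the first 3 were 1.86, 1.48 and 0.98 (standard errors 1.03, 1.09 and 0.66), none past the bound, and 0.29, −0.18 and 0.02 without knockdown replicate 1. Without knockdown replicate 2 they were 3.44, 3.14 and 1.94. The suffix x_at marks probe sets with probes that can match other transcripts as well, so 2 of the 3 could hold such signal. KRT18 and CD44 were high in the same array, as was VCL, whose protein vinculin binds α-catenin: its probe set 200931_PM_s_at read 2.62, 1.21, 5.96 and 2.78 in the same order. Knockdown replicate 1 was more than 1 log2 above each other array in 4 of the 25 probe sets, against 6.57% of all.

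CTNND1, which encodes p120-catenin, was low and flat on all 4 of its probe sets. Its values ran from 1.21 to 2.08, its log2 fold changes from −0.06 to 0.21, and the groups overlapped on each of the 4. JUP, which encodes plakoglobin, the catenin shared by adherens junctions and desmosomes, has 1 probe set. It read 2.07 and 2.38 in the control arrays against 1.82 and 1.81 after knockdown. The knockdown arrays were both lower, and the log2 fold change of −0.41 (90% interval −0.86 to 0.04, adjusted p = 0.625 from limma) was larger than the distance between the controls. It was −0.41 without either knockdown array and −0.25 without control replicate 2. Between the same groups the nonspecific control used above differed by −0.64 and the median of all 23 nonspecific controls by −0.29, and their part in the JUP value was not tested. CTNNB1, the β-catenin that binds the same tail, is no member and was far above background on 201533_PM_at, with 10.26 and 10.43 in the control arrays against 10.24 and 10.41 after knockdown, a log2 fold change of −0.02 (90% interval −0.40 to 0.37).

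Of the EMT factors, ZEB1 was higher in both knockdown arrays on 2 of its 4 probe sets, short of the bound on each. All 4 ZEB1 probe sets lay below the nonspecific control in every array. ZEB1, a zinc finger and homeodomain repressor of CDH1, read 1.55 and 1.15 in the control arrays against 1.91 and 2.03 after knockdown on 212764_PM_at. Both knockdown arrays were higher, with a log2 fold change of 0.62 (limma, standard error 0.20, adjusted p = 0.625), and the lower 90% bound of the fold was 1.16, short of the limit of 1.2. On 210875_PM_s_at it read 1.06 and 0.94 against 1.25 and 1.46, a log2 fold change of 0.35 (standard error 0.11) with a lower bound of 1.10. These 2 probe sets had values of 0.68 and 0.46 without knockdown replicate 1. The ZEB1 probe set with the most signal, 212758_PM_s_at, read 2.52 and 2.07 against 2.29 and 2.41, and 239952_PM_at read 1.402 and 1.502 against 1.383 and 1.496. On both of these the groups overlapped, with log2 fold changes of 0.06 and −0.01, so the 4 probe sets of ZEB1 did not move alike. Without control replicate 1, whose loss leaves 1 control array that is assumed to vary like the others, 212764_PM_at had 0.82 and was past the bound. SNAI2, a zinc finger repressor also called SLUG, read 1.26 and 1.18 in the control arrays against 1.33 and 1.29 after knockdown. Its log2 fold change of 0.09 (90% interval −0.10 to 0.29) was near 0 at a signal below the nonspecific control in every array.

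ESRP2 was the gene with a probe set past the fold bound. ESRP2, an RNA-binding protein that sets epithelial splice forms, read 2.96 and 3.43 in the control arrays against 1.79 and 1.75 after knockdown on 219395_PM_at. Both knockdown arrays were lower, with a log2 fold change of −1.42 (limma, standard error 0.30, adjusted p = 0.625) and a lower 90% bound of the fold of 1.76. Leaving out each array in turn gave −1.66 to −1.19, and the probe set was past the bound in each case. Knockdown replicate 1 did not stand apart from replicate 2 there. The signal was above the nonspecific control in control replicate 2 only, and between the same groups this control differed by −0.64 and the median of all 23 nonspecific controls by −0.29. Their part in the ESRP2 value was not tested. The second ESRP2 probe set, 229223_PM_at, read 1.19 and 1.16 in the control arrays against 1.07 and 1.46 after knockdown, with a log2 fold change of 0.09. The 2 probe sets of the gene thus gave different pictures, and averaging them gave −0.67 on the log2 scale. In RefSeq the ESRP2 gene overlaps its neighbour NFATC3 at one end. A NFATC3 probe set, 207416_PM_s_at, read 2.35 and 2.80 in the control arrays against 1.17 and 1.53 after knockdown, a log2 fold change of −1.23, while its other 3 lay between −0.03 and 0.03. ESRP1, the paralogue of ESRP2, read 1.14 to 1.39 on its 2 probe sets, and the groups overlapped on both, with log2 fold changes of −0.11 and 0.01.

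The genes around this set were read from lists of adhesion, junction and EMT genes, 131 of whose 139 genes have a probe set here. Of their 389 probe sets, 6 passed the fold bound upward and 10 downward, or 4.11%, against 3.56% of all probe sets in either direction. No list had more than 4 called. The median log2 fold change ran from −0.15 for epithelial surface genes to 0.17 for splicing regulators of EMT, beside −0.01 over all probe sets. Without knockdown replicate 1 these medians were −0.07 and 0.24, beside 0.005 over all. Of the 27 probe sets of epithelial surface genes, 22 were above the nonspecific control in no array, as were 26 of the 51 of splicing regulators.

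Among mesenchymal genes, VIM, the intermediate filament of mesenchymal cells, was far above background on 201426_PM_s_at. It read 10.84 and 10.28 in the control arrays against 11.62 and 11.13 after knockdown, a log2 fold change of 0.81 (limma, standard error 0.27, adjusted p = 0.625) with a lower bound of 1.203, at the limit. Without knockdown replicate 1 the value was 0.56 and without control replicate 2 it was 0.53. A second VIM probe set, 1555938_PM_x_at, read 1.46 and 1.94 against 1.06 and 1.29, lower in both knockdown arrays and not past the bound. Of 7 probe sets of FN1, fibronectin, 1 was higher (210495_PM_x_at, 1.21, and 0.75 without knockdown replicate 1) and 1 lower (214701_PM_s_at, −0.69) past the bound.

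Of 14 measured EMT transcription factors outside the set, 5 were above the nonspecific control in all 4 arrays, namely ETS1, SOX4, TCF4, TWIST1 and ZEB2. Of 11 epithelial transcription factors 0 were, and of 11 desmosome genes 0. Over all genes the share was 7.73%, so 0 of 11 lies near that background. The 14 EMT factors also had 46 probe sets, any of which could pass, against 25 and 23 in the other 2 lists. TCF4, a helix–loop–helix factor, read 8.33 and 6.92 in the control arrays against 8.66 and 9.22 after knockdown on 212386_PM_at. Both knockdown arrays were higher, but the log2 fold change of 1.32 was 0.61 without control replicate 2. SOX4, an HMG-box factor, read 8.47, 5.95, 8.79 and 9.06 in the same order on 201417_PM_at, and its log2 fold change of 1.72 was 0.46 without control replicate 2. ZEB2, the paralogue of ZEB1, read 5.47 and 4.30 against 5.33 and 5.99 on 228333_PM_at, and the groups overlapped. TWIST1 read 4.54 and 4.51 against 4.79 and 4.18, with a log2 fold change of −0.04. Control replicate 2 was thus the lowest array for TCF4, SOX4 and ZEB2, and none of these probe sets was past the bound. Past it were TWIST2 (1.24 on 229404_PM_at, 0.75 without control replicate 2) and a further SOX4 probe set below the nonspecific control in every array (213665_PM_at, −0.76).

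**Figure D4:**
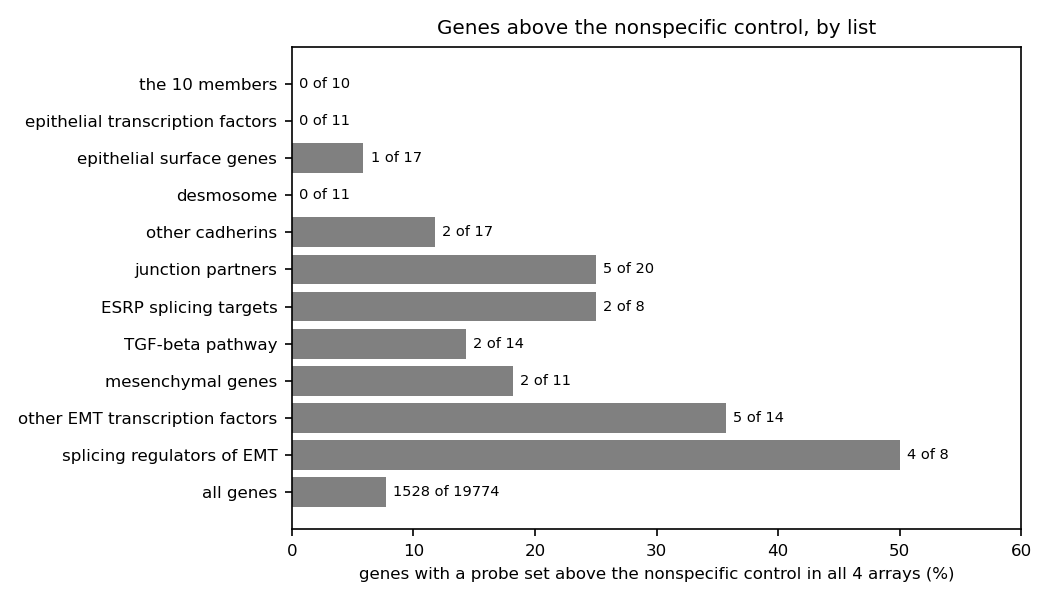
Share of measured genes in each list with a probe set above the nonspecific control in all 4 arrays (horizontal axis, %), with the count beside each bar. None of the 10 genes described here, 0 of 11 epithelial transcription factors and 0 of 11 desmosome genes reached it, against 5 of 14 other EMT transcription factors, 4 of 8 splicing regulators of EMT and 1528 of all 19774 genes.

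Other genes of the lists, among them partners of the cadherin complex, were past the bound on single probe sets. ARVCF, a p120 relative, read 3.96 and 5.02 in the control arrays against 2.60 and 2.97 after knockdown on 205784_PM_x_at. Its log2 fold change there was −1.71 (−1.18 without control replicate 2). On 217516_PM_x_at ARVCF read 4.47 and 4.40 against 3.88 and 4.53. On 1556149_PM_at it was lower in both knockdown arrays, at −0.94, and not past the bound. CTNND2, the δ-catenin of neurons, read 2.15 and 2.77 against 1.55 and 1.37 on 209617_PM_s_at and was lower past the bound. On 1566440_PM_at and 209618_PM_at of CTNND2 the groups overlapped, at −0.02 and −0.09. AFDN, the nectin-binding protein afadin, had 0.66 on 224685_PM_at. This probe set and 209617_PM_s_at of CTNND2 lay below the nonspecific control in every array. On 3 other AFDN probe sets both knockdown arrays were lower, with log2 fold changes of −0.42, −0.29 and −0.21 that were not past the bound. CDH22, a cadherin first described in the brain, had −1.20 on 215181_PM_at. Its other probe set, 1569679_PM_at, was above the nonspecific control in all 4 arrays, read 3.91 and 3.89 against 3.87 and 4.93, and was not past the bound at 0.50. ST14, the membrane protease matriptase, had −0.70 on 202005_PM_at. SMAD6, an inhibitor of BMP signalling, had −1.06 on 209886_PM_s_at.

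Genes whose splicing ESRP proteins set gave both directions. FGFR2, a receptor with epithelial and mesenchymal splice forms, had log2 fold changes of 0.91 on 208234_PM_x_at, −1.16 on 211398_PM_at and −0.65 on 208229_PM_at, all past the bound. CD44 had −1.09 on 234411_PM_x_at, which read 3.72 and 4.05 in the control arrays against 2.74 and 2.84 after knockdown, while 212063_PM_at had 3.36 through knockdown replicate 1 and 0.11 without it. QKI, a splicing regulator that is high in mesenchymal cells, read 9.70 and 9.95 against 10.10 and 10.66 on 212265_PM_at, with a log2 fold change of 0.55 that was not past the bound, and 1555154_PM_a_at, with 1.53, was. No splice form can be read from these values, since each probe set gives 1 signal for its own stretch of transcript.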

How the data were processed

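Expression in DU145 cells was read on 4 Affymetrix arrays of 1 colour, 2 per group. What the authors deposited is 1 table of summarised signals on the log2 scale. Affymetrix Expression Console (version not stated) is named in the submitters' processing notes, and in the methods dChip with a smoothing spline, so the algorithm behind the values is not settled. Log2 was taken as the scale because the highest value, 13.1, would exceed a scanner's range on another logarithm.

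Gene names came from the platform's annotation table. Of 54715 probe sets, 40914 name 1 gene, 864 several and 12835 none, and 102 are array controls. Those naming 1 gene were tested with limma (version 3.58.1, R 4.3.3) with a variance trend and no further scaling or filter. By gene ID, 40858 matched RefSeq and 0 symbols changed. Arrays have no read depth, so the number of arrays and the signal over background limit precision. Since nothing beyond the word biological says how the duplicates were made, p-values measure the spread between these arrays. The fit was tested on simulated arrays. Members and lists were chosen with earlier results of these data known. Named were the members, DCUN1D1, list genes past the fold bound, the brightest gene of the main lists, and others marked as picked after their values were seen. NFATC3, KRT8, EPCAM, VCL, AXL, CD44 on 212063_PM_at, ZEB2, TWIST1 and SOX4 on 201417_PM_at are also of that kind. The 3 genes with the most similar pattern were to be named for members above the nonspecific control in all 4 arrays, and 0 of the 10 qualified. Alternatives were other scalings, filters, probe set rules, variance models, bounds, a replicate block, the methods' t-test and leaving out each array. A fit of all 54613 probe sets that are no control was added after the data were seen. Some genes of the lists are not reported here.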

Additional observations from a re-analysis of the deposited data

Results flagged for a closer look

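One probe set outside the comparison carries the name of a member together with another gene. Probe set 225141_PM_at names ESRP2 and NFATC3 and was left out for that reason. It read 1.88 and 1.67 in the control arrays against 2.45 and 3.26 after knockdown, both above both controls, with a log2 fold change of 1.08 (limma, standard error 0.35, adjusted p = 0.616 in a fit of all 54613 probe sets that are no control). It was past the fold bound with a lower bound of 1.30, opposite in direction to the ESRP2 probe set 219395_PM_at. Leaving out each array gave 0.67 to 1.48. Which of the 2 genes it measures cannot be told from the table.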

How the results depend on the processing

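The ESRP2 probe set 219395_PM_at was the one member lower past the fold bound in the reported fit, and the count of members lower past it was 1 under every alternative that gave a value. The filter on probe sets above the nonspecific control kept 0 members and gave none. The count of members higher past the bound was 0, became 2 (CTNNA1 and ZEB1) with a plain 1.5-fold limit and groups that do not overlap, and ran from 0 to 4 when each array was left out. Limma's adjusted p called 0 members in the reported fit and under the alternatives that kept all 4 arrays. This did not hold in the fit without knockdown replicate 2. The 4 higher past the bound came without knockdown replicate 2 (3 CTNNA1 probe sets and 1 CDH2), where 9.80% of all probe sets were higher. Each such fit leaves 1 array in a group, assumed to vary like the others.

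Over all probe sets 481 were higher, 974 lower, and 16 of the pathway lists were past the bound. Leaving out each array gave 47 to 4008, 503 to 1374 and 3 to 48. The filter above the nonspecific control tested 4685 probe sets and gave 327 higher, 452 lower and 6 in the lists. The brightest probe set per gene, with 19774 tested, gave 311 higher, 720 lower and 8 in the lists. The mean over probe sets gave 172, 412 and 0, the lower 95% bound 177, 501 and 9, and the plain 1.5-fold limit 2530, 2192 and 54. Unmoderated standard errors gave 297 higher. Fewer features were tested with the filter, the brightest probe set and the mean, so these counts do not compare directly with the reported fit. With the filter the share called was larger than in the reported fit, in both directions. The cause of these changes was not tested.

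For the brightest probe set of each gene, the sign turned for CTNND1 with quantile scaling (−0.013) and for CDH2 with the mean over probe sets (0.35). Leaving out each array gave −0.54 to 0.091 for CDH1, −0.34 to 0.26 for CDH2, −0.051 to 0.015 for CDH3, −0.13 to 0.14 for CTNND1 and −0.17 to 0.28 for ZEB1, all with a turned sign. CTNNA1 ran from 0.02 to 1.94, the highest without knockdown replicate 2.

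Deviations of same-numbered arrays from their group means had r = −0.04 over all probe sets. Most of these were near background and knockdown replicate 1 stood apart, so this cannot settle whether replicate numbers pair the arrays. With the replicate number as a block the counts were 0 members higher, 1 lower, 505 of all higher, 669 lower and 14 in the lists, and no member's call changed.

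The methods' t-test called 794 higher and 2134 lower at its unadjusted limit, and 1 and 0 after Benjamini–Hochberg adjustment. At an unadjusted p under 0.05 limma gave 939 and 2146, and 0 after adjustment. Signal over background limits most: 18 of the 25 member probe sets were above the nonspecific control in no array, as were 31122 of all 40914. Other nonspecific controls were not tried as the cut.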
